A study of Mus musculus with 84 samples.

Results

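Il6 divided the WT MMC9 cells of this series into 51 cells in which it was detected and 17 in which it was not. MMC9s are mucosal mast cells of the small intestine that are known for releasing interleukin-9 during food allergy. All 81 single cells were WT cells of the BALB/c strain, from mice sensitized to ovalbumin and then given repeated oral ovalbumin, and each was sorted as a lineage-negative, IL-4GFPhigh, IL-17RB2-, c-Kit+, ST2+ cell with low β7-integrin. Cells were kept with at least 10000 reads in genes, under 20% mitochondrial (mt-) reads and under 10% immunoglobulin reads, which left 68 cells. A kept cell was Il6-detected with 10 or more Il6 reads and Il6-undetected with fewer, so the groups were chosen by a measured value of the same cells. The labels name no animal, so the cells count as 1 sample and no p-value or standard error was computed. The 3 other libraries are bulk RNA of MMC9s of the genotypes IL4raY709F (a gain of function of the IL-4 receptor alpha chain), IL4ra-/- (its loss of function) and WT, with 1 library each. For these, sensitized WT hosts were reconstituted with bone marrow progenitors of 1 genotype and challenged orally with ovalbumin 7 times, 3 times a week, and the RNA of 12 to 20 biological replicates was pooled per library. The labels do not say whether the WT hosts' own mast cells were kept out of these libraries.

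Interleukin-6 is a secreted cytokine that acts through the IL-6 receptor and the shared subunit gp130, which activate JAK kinases and the transcription factor STAT3. Mast cells are known to make it after stimulation through the IgE receptor or the IL-33 receptor ST2. Transcription of its gene is known to depend on NF-kB together with AP-1 and C/EBP factors that bind close to the start site, and its mRNA is short-lived because RNA-binding proteins such as Regnase-1 and Roquin promote its decay. Chemokine and cytokine genes that respond to the same receptors share much of this control.

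The promoter window of Il6 is shown because Il6 set the groups, beside those of Ccl1 and Ccl3, chemokine genes called higher in the Il6-detected cells. Each window runs from 250 bases before the RefSeq start to 50 bases after it in GRCm38.p6, 5′ to 3′ on the gene's strand. Capitals mark matches on either strand to NF-kB (GGGANNTTC), AP-1 (TGANTCA), C/EBP (TTGCNNAA) or NFAT (TGGAAA) letters. The Il6 window is chr5:30012864-30013163 (plus strand), that of Ccl1 is chr11:82179763-82180062 (minus strand) and that of Ccl3 is chr11:83649329-83649628 (minus strand).
Il6: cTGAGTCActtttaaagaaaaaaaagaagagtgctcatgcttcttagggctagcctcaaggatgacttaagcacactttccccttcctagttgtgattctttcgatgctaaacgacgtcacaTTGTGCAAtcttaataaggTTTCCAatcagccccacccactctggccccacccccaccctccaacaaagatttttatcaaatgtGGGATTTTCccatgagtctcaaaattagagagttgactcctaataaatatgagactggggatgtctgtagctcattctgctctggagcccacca
Ccl1: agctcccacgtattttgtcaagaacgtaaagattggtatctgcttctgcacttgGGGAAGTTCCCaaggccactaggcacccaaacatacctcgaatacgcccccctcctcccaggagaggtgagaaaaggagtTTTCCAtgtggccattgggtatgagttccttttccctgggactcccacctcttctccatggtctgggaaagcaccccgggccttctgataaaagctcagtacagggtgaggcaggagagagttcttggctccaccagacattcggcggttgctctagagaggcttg
Ccl3: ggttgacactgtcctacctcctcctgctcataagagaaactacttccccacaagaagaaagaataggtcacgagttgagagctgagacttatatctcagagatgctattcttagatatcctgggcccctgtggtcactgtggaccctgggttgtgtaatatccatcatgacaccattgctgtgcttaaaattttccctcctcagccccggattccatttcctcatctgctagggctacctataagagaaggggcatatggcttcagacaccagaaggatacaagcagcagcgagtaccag
In the Il6 window the AP-1 letters began 249 bases before the start, the C/EBP letters 128, the NFAT letters 109 and the NF-kB letters 44. The Ccl1 window held NF-kB letters on both strands, overlapping each other, that began 196 and 194 bases before the start, and NFAT letters 116 bases before it. None of these letters were in the Ccl3 window. Of all 32851 promoter windows, 3.94% held the NF-kB letters, 7.81% the AP-1 letters, 10.8% the C/EBP letters and 21.4% the NFAT letters. Of the genes called higher in Il6-detected cells, 70 had windows in the table, 90 windows in all, of which 3.33% held the NF-kB letters, 5.56% the AP-1 letters, 7.78% the C/EBP letters and 21.1% the NFAT letters. A match is a run of letters and not evidence of binding.

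Il6 (ENSMUSG00000025746, GRCm38 chromosome 5, 30013114 to 30019981, plus strand) was detected in 75% of the kept cells, with an exact 95% interval of 63% to 84.7% that covers counting error only. In the Il6-detected cells it had 11 reads at the lowest, 774 at the median and 7253 at the highest. In the Il6-undetected cells it had 0 reads at the lowest, 4 at the median and 9 at the highest. Its level thus varied widely within the Il6-detected cells, of which 23 had 1000 or more reads. The 5 cells with the most Il6 reads held 34.6% of the 80265 Il6 reads of all kept cells, and the highest 10 held 55.2%.

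Few cells lay near the threshold. Just inside it, cell 44 had 11 Il6 reads, cell 23 had 12, cell 25 had 46 and cell 21 had 48, and every other Il6-detected cell had over 100. Just outside it, cell 59 had 9 reads, and cells 56 and 64 had 8 each. As counts per 1000000 gene reads (CPM), the groups overlapped at this edge: cell 44 stood at 7.00 CPM and cell 64 at 7.17 CPM. Of the Il6-undetected cells, 16 had 1 to 9 Il6 reads and only cell 52 had none. What these few reads stem from was not tested.

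Depth and content of the cells bear on every comparison. The Il6-detected cells had 623183 gene reads at the lowest, 1369499 at the median and 2210211 at the highest, against 815010, 1197618 and 1587440 in the Il6-undetected cells. Genes with 10 or more reads, Il6 left out, numbered 1386, 2828 and 4904 in the Il6-detected cells, against 1598, 2257 and 4255 in the Il6-undetected cells. Mitochondrial reads had a median of 4.21% and a highest value of 12.8% in the Il6-detected cells, against 5.97% and 18.9% in the Il6-undetected cells. The Il6-detected cells thus had more detected genes and fewer mitochondrial reads at the median, with wide overlap. Across the 68 cells, which share 1 sample, Il6 CPM had a Spearman rank correlation of 0.11 with detected genes and of -0.20 with the mitochondrial share.

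**Figure D1:**
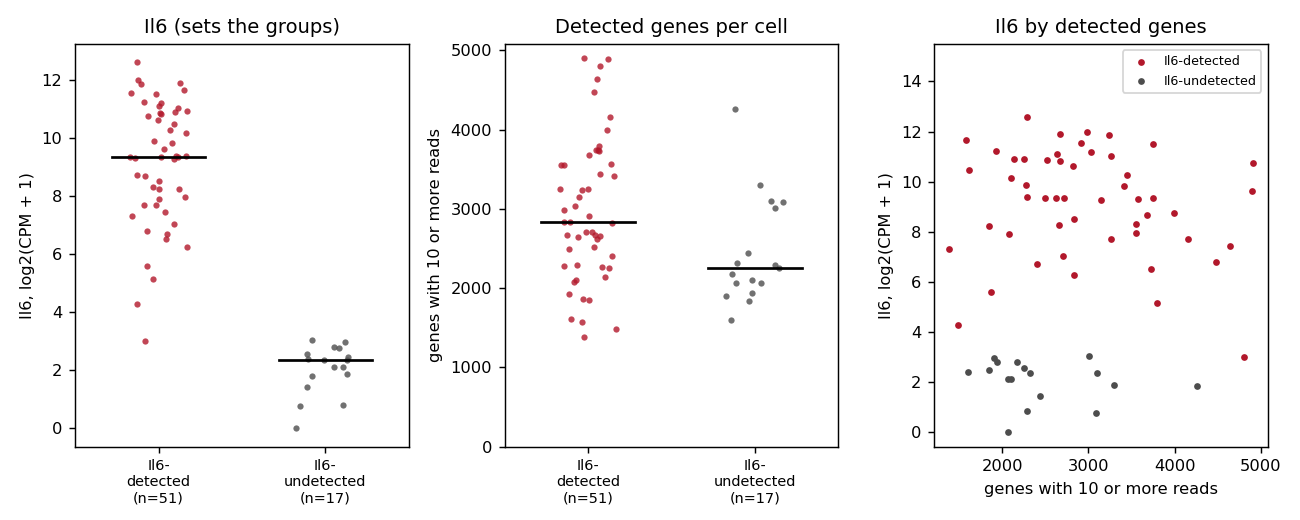
Left, Il6 level per cell (log2(CPM + 1)) in Il6-detected and Il6-undetected cells. Middle, genes with 10 or more reads per cell. Right, Il6 level against detected genes; bars are medians and each point is 1 cell. Detected genes had medians of 2828 and 2257 in Il6-detected and Il6-undetected cells, and Il6-undetected cells lie across most of their range.

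A gene was called where the mean log2(CPM + 1) of the Il6-detected cells minus that of the Il6-undetected cells was 2 or more (higher) or -2 or less (lower), both as it stood and as the coefficient of the group in a least-squares fit with detected genes per cell as a covariate. The fitted value is the adjusted difference below. Of 6780 genes with 10 or more reads in at least 8 kept cells, 90 were called higher, which is 1.33% of them, and 14 were called lower, which is 0.206%. These are calls of size with no error rate, since 1 sample gives no spread between animals. Without the covariate 206 genes reached a difference of 2 and 14 reached -2. On the adjusted difference alone 91 genes reached 2 and 61 reached -2, so the small number called lower came from the requirement on the unadjusted difference as well. The median over all measured genes was 0.35 unadjusted and 0.03 adjusted. The genes called higher had 10 or more reads in a median of 66.7% of Il6-detected cells and 35.3% of Il6-undetected cells, and the genes called lower in a median of 23.5% and 52.9%. Over all measured genes the medians were 31.4% and 23.5%. By mean CPM, 69 of the 90 genes called higher were 2-fold or more higher in Il6-detected cells. Of the 90, 66 had a median under 5 CPM in Il6-undetected cells, so many calls rest on cells at or near 0. With each cell thinned to 150000 gene reads and detection at 2 reads, Ccl4 was detected in 88.2% of Il6-detected and 58.8% of Il6-undetected cells, Il4 in 86.3% and 52.9%, Pim1 in 96.1% and 58.8%, Batf in 80.4% and 41.2%, and Tnf in 31.4% and 11.8%, so these shares had the same order at equal depth.

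**Figure D2:**
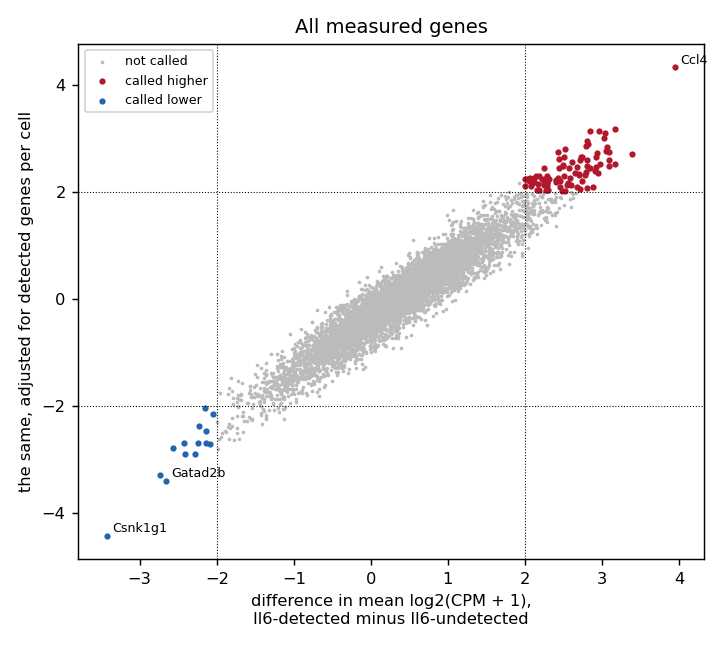
Each point is 1 of the 6780 measured genes, with its difference in mean log2(CPM + 1), Il6-detected minus Il6-undetected cells, on the x axis and the same difference adjusted for detected genes per cell on the y axis. The 90 genes called higher lie in the upper right corner, with Ccl4 farthest out at 4.32 adjusted, and the 14 called lower in the lower left corner, with Csnk1g1 at -4.44.

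The chemokine list had the highest median adjusted difference of the lists, 2.68. Of 21 chemokines listed, 4 were measured, and 3 of these (Ccl1, Ccl3 and Ccl4) were called higher and none lower. Over all measured genes 1.33% were called higher and 0.206% lower, the shares to set beside this and every list count below. Ccl4 (ENSMUSG00000018930, chromosome 11, 83662584 to 83664683, plus strand), which encodes a secreted chemokine, had 2.55 CPM at the lowest, 1585 at the median and 17789 at the highest in Il6-detected cells, against 0.727, 17.6 and 3161 CPM in Il6-undetected cells. Most Il6-detected cells lay above most Il6-undetected cells, but the groups overlapped over most of the range. Its mean log2(CPM + 1) was 9.76 ± 3.14 in Il6-detected cells and 5.81 ± 3.73 in Il6-undetected cells (SD over cells), a difference of 3.95, or 4.32 adjusted. The adjusted difference was 4.21 among cells above the median of detected genes and 4.46 among the others. Ccl4 had 10 or more reads in 46 Il6-detected and 13 Il6-undetected cells (90.2% and 76.5%). The shares given above at equal reads were further apart, but they used another cut, 2 reads in 150000. The part of depth and that of the cut cannot be told apart there.

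Ccl3 (chromosome 11, 83647844 to 83649355, minus strand), its neighbour and another secreted chemokine gene, had a median of 146.2 CPM and a highest value of 2194 CPM in Il6-detected cells, against 1.79 and 622 CPM in Il6-undetected cells. Both groups held cells at 0. It was detected in 38 of 51 Il6-detected cells (74.5%, exact 95% interval 60.4% to 85.7%) and in 7 of 17 Il6-undetected cells (41.2%, 18.4% to 67.1%), with an adjusted difference of 3.13. Ccl1, which encodes a ligand of CCR8, had a median of 4.51 CPM and a highest value of 7984 CPM in Il6-detected cells, against 0 and 207 CPM in Il6-undetected cells. With 24 and 5 cells in which it was detected, its adjusted difference of 2.24 lay close to the limit of 2: it was 0.18 among cells above the median of detected genes and 3.31 among the others. Ccl2, a ligand of CCR2, had an adjusted difference of 1.66 and was not called.

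**Figure D3:**
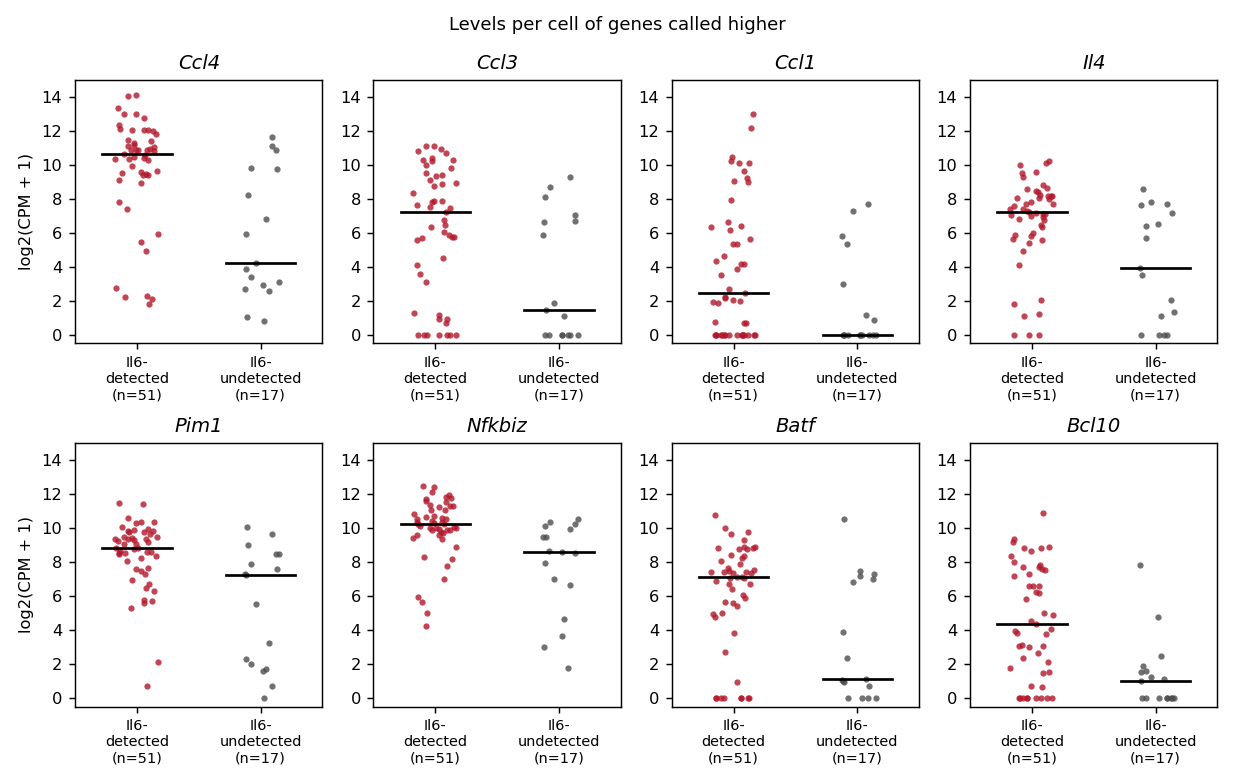
Level per cell (log2(CPM + 1)) of 8 genes called higher, in Il6-detected cells on the left of each panel and Il6-undetected cells on the right; each point is 1 cell and bars are medians. The groups overlap for every gene, and some Il6-undetected cells reach the upper range, as for Ccl4 at 3161 CPM.

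Of 27 other cytokine genes listed, 8 were measured, and Il4 and Csf1 were called higher and none lower. Il4 (ENSMUSG00000000869, chromosome 11, 53602982 to 53618669, minus strand), the cytokine whose reporter the sort selected on, had 0 CPM at the lowest, 150.9 at the median and 1174 at the highest in Il6-detected cells, against 0, 14.2 and 388 CPM in Il6-undetected cells. It was detected in 44 of 51 Il6-detected cells (86.3%, 73.7% to 94.3%) and in 10 of 17 Il6-undetected cells (58.8%, 32.9% to 81.6%). Its adjusted difference was 2.30, but -0.45 among the cells above the median of detected genes, of which 29 were Il6-detected and 5 Il6-undetected, and 3.66 among the other cells, 22 and 12. The direction for Il4 therefore rested on cells with fewer detected genes. Csf1, which encodes macrophage colony-stimulating factor, was detected in 18 Il6-detected cells and 1 Il6-undetected cell, and its adjusted difference was 2.24.

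Tnf, whose product often accompanies IL-6 in activated mast cells, was detected in 19 of 51 Il6-detected cells (37.3%, 24.1% to 51.9%) and in 2 of 17 Il6-undetected cells (11.8%, 1.46% to 36.4%), with an adjusted difference of 1.64. Lif, which encodes a relative of IL-6 that also signals through gp130, was detected in 29 and 5 cells, with an adjusted difference of 1.38. Neither was called. Il13, a type 2 cytokine, was detected in 11 and 1 cells and Il10, an anti-inflammatory cytokine, in 8 and 1 cells, with adjusted differences of 0.51 and 0.70. Il9, the cytokine for which MMC9s are named, had 10 or more reads in 1 Il6-detected cell and in none of the 17 Il6-undetected cells, which allows a share of up to 19.5%. Csf2 gave the same counts, so neither gene was measured in enough cells to compare.

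The cytokine and chemokine genes were also counted per cell, as a description. The 6 genes Il4, Il13, Ccl3, Ccl4, Ccl1 and Csf1 were taken after their values were seen. Of these, 5 were already called higher in the same cells, so a gap in their counts follows from the choice. At 10 reads, 29 Il6-detected cells (56.9%) held 4 or more of the 6, against 2 Il6-undetected cells (11.8%). Among the cells above the median of detected genes the shares were 51.7% and 20.0%, and among the others 63.6% and 8.33%. Of the measured cytokine and chemokine genes outside the 6, Ccl2 was detected in 47 of 51 Il6-detected and 15 of 17 Il6-undetected cells. Osm, a relative of IL-6, was detected in 25 and 10, Ebi3 in 23 and 6, Lif in 29 and 5, Tnf in 19 and 2 and Il10 in 8 and 1. All 6 genes of the count were detected in 3 Il6-detected cells and in 1 Il6-undetected cell. This last was cell 52, the cell with 0 Il6 reads among 1144865 gene reads. It had 3161 CPM of Ccl4, 622 of Ccl3, 207 of Ccl1, 206 of Il4, 228 of Csf1, 790 of Pim1, 998 of Nfkbiz and 354 of Nr4a3, while Tnf, Batf, Bcl10 and Birc3 were at 0 reads. Of the 51 Il6-detected cells, 13 had more Ccl4 than cell 52, so a high chemokine level was measured there without an Il6 read.

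Of 17 measured members of the list of NF-kB subunits and targets, 2 were called higher, against 1.33% of all measured genes, and none lower, and the list's median adjusted difference was 0.63, against 0.03 over all measured genes. Nfkbiz (ENSMUSG00000035356, chromosome 16, 55811375 to 55838899, minus strand) encodes IκBζ, a nuclear cofactor of NF-kB that is known to be needed for Il6 transcription in mouse macrophages. It had 18.2 CPM at the lowest, 1220 at the median and 5719 at the highest in Il6-detected cells, against 2.45, 383 and 1486 CPM in Il6-undetected cells. The Il6-undetected cells lacked its upper range. Its adjusted difference was 2.17, with 1.46 among cells above the median of detected genes and 2.42 among the others. Cells in which it was detected numbered 51 and 15, so the groups differed in level. Birc3, an NF-kB target that encodes the ubiquitin ligase cIAP2, had medians of 88.4 CPM in Il6-detected cells and 10.9 CPM in Il6-undetected cells. Its adjusted difference was 2.65, and 1.74 and 3.17 in these parts of the cells. The subunit genes Nfkb1, Rel, Rela and Relb had adjusted differences of 1.09, 0.58, 0.47 and 0.10, and the inhibitor genes Nfkbia and Tnfaip3 of 0.95 and 1.04, with no call.

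Bcl10 (ENSMUSG00000028191, chromosome 3, 145922804 to 145934356, plus strand), a scaffold protein that links immune receptors to NF-kB and was on none of the lists, had the second largest adjusted difference, 3.17. Its median was 19.7 CPM and its highest value 1925 CPM in Il6-detected cells, against 0.992 and 226 CPM in Il6-undetected cells. Its reads reached 10 in 32 of 51 Il6-detected cells (62.7%, 48.1% to 75.9%) and in 2 of 17 Il6-undetected cells (11.8%, 1.46% to 36.4%). The adjusted difference of Bcl10 was 1.91 among cells above the median of detected genes and 3.94 among the others. Of the IgE receptor signalling list, 20 members were measured and none was called, with a median of 0.25, and of the calcium and NFAT list 13 were measured and none was called, with a median of 0.57. Lyn, a kinase of the IgE receptor, had an adjusted difference of 1.81, and Plcg1 of the same list one of -1.91. Of 9 measured genes of IL-33 receptor signalling none was called, with a median of 0.29.

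Pim1 (ENSMUSG00000024014, chromosome 17, 29490753 to 29496112, plus strand), which encodes a serine/threonine kinase known to be induced by STAT3 and STAT5, was the member called higher among 11 measured genes of IL-6 receptor signalling, a list with a median of 0.75 and no member called lower. It had 0.644 CPM at the lowest, 457.8 at the median and 2866 at the highest in Il6-detected cells, against 0, 149.9 and 1052 CPM in Il6-undetected cells. It was detected in 49 of 51 Il6-detected cells (96.1%, 86.5% to 99.5%) and in 10 of 17 Il6-undetected cells (58.8%, 32.9% to 81.6%). Its adjusted difference was 3.13, with 1.56 among cells above the median of detected genes and 4.06 among the others. Cish of the same list came close, with an adjusted difference of 1.998 and an unadjusted one of 1.79, and was not called. The transducer Stat3 and the kinase genes Jak1 and Jak2 had adjusted differences of -0.31, 0.93 and 0.93, and the feedback inhibitor Socs3 of 0.97, with no call. Of 12 measured survival genes Pim1 was again the member called, with none lower and a list median of -0.18.

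Among 16 measured regulators of Il6 transcription and mRNA decay, Rc3h1 was called higher and none lower, and the median was -0.11. Rc3h1 encodes Roquin-1, an RNA-binding protein that promotes decay of cytokine mRNAs, and was detected in 24 Il6-detected and 2 Il6-undetected cells, with an adjusted difference of 2.55. Zc3h12a, which encodes Regnase-1, had 1.56 and was not called. Of 20 measured immediate early factors, Nr4a3 alone was called higher and none lower, and the median was 0.09. Nr4a3, a nuclear receptor gene induced by receptor signalling, had medians of 77.7 CPM in Il6-detected cells and 2.01 CPM in Il6-undetected cells and an adjusted difference of 2.28. Fos, Jun and Egr1, which also respond to tissue handling, differed by 0.32, -0.32 and -0.07 and were not called. The uncalled members of the list ran from -1.66 (Ier5) to 1.71 (Ier3). Of 13 measured heat shock and dissociation stress genes, 2 were called higher, against 1.33% of all measured genes, and none lower. They were Dnajb1 and Gadd45b, with adjusted differences of 2.03 and 2.23. The list's median was 0.10, against 0.03 over all measured genes. With Il6 detection set at 50 reads, Dnajb1 had 0.79.

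Of the IL-4 receptor and BATF list, 10 genes were measured, Batf was called higher and none lower, and the median was 0.14. Batf (ENSMUSG00000034266, chromosome 12, 85686669 to 85709087, plus strand), an AP-1 family transcription factor, had 0 CPM at the lowest, 139.2 at the median and 1747 at the highest in Il6-detected cells, against 0, 1.23 and 1482 CPM in Il6-undetected cells. Detection was in 41 of 51 Il6-detected cells (80.4%, 66.9% to 90.2%) and in 7 of 17 Il6-undetected cells (41.2%, 18.4% to 67.1%). Its adjusted difference was 2.46 over all kept cells, 1.99 among those above the median of detected genes and 2.68 among the others. Irf4, the DNA-binding partner of BATF, was detected in 7 and 2 cells and differed by -0.14. Il4ra, the receptor chain altered in the bulk genotypes, was detected in 21 of 51 Il6-detected cells (41.2%, 27.6% to 55.8%) and 8 of 17 Il6-undetected cells (47.1%, 23% to 72.2%) and differed by -1.05, and Stat6, its transducer, by 1.36, with no call for any of these.

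Mast cell identity genes were detected in both groups. Of 14 listed mast cell markers all were measured and none was called, with a median of 0.33. Their summed level was 42373 CPM at the lowest, 74987 at the median and 196387 at the highest in Il6-detected cells, against 26767, 63766 and 130422 CPM in Il6-undetected cells. Cpa3, the carboxypeptidase of mast cell granules, had medians of 18168 and 12141 CPM in Il6-detected and Il6-undetected cells and was detected in all 68, as were the IgE receptor chain gene Fcer1a, the ST2 gene Il1rl1 and Hdc, which makes histamine. Kit, the stem cell factor receptor the sort selected on, had medians of 1942 and 3429 CPM and an adjusted difference of -0.40. Among 11 measured granule proteases, Gzmb was called higher and none lower, with a list median of 0.10. Gzmb, granzyme B, had medians of 3501 CPM in Il6-detected cells and 785 CPM in Il6-undetected cells and an adjusted difference of 2.08, but -0.13 among the cells above the median of detected genes and 3.35 among the others. The mast cell chymase gene Cma1 had medians of 3918 and 1364 CPM and an adjusted difference of 1.52, Mcpt1 one of 0.64 and Mcpt2 one of -0.32, with no call.

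Other lists held single calls or none, and no list had a member called lower. On the adjusted difference alone, Rrm1 of the proliferation list (-2.82), Stxbp2 of the exocytosis list (-2.21) and Dnajb9 of the unfolded protein response list (-2.20) reached -2, but their unadjusted differences were -1.98, -1.36 and -1.66. Of 21 measured genes of granule contents and histamine, Ctsb, a lysosomal protease, was called higher with an adjusted difference of 2.46. Of 9 measured eicosanoid genes, Tbxas1, thromboxane synthase, was called with 2.44, and of 24 measured growth and mast cell receptors, P2rx4, an ATP-gated channel, with 2.02. There was no call among 24 measured proliferation genes, 15 of glycolysis, 17 of the unfolded protein response, 14 of exocytosis, 18 mast cell transcription factors, 9 MAP kinase brakes or 12 housekeeping genes, with medians of -0.21, 0.01, -0.18, -0.33, -0.10, 0.24 and 0.11.

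**Figure D4:**
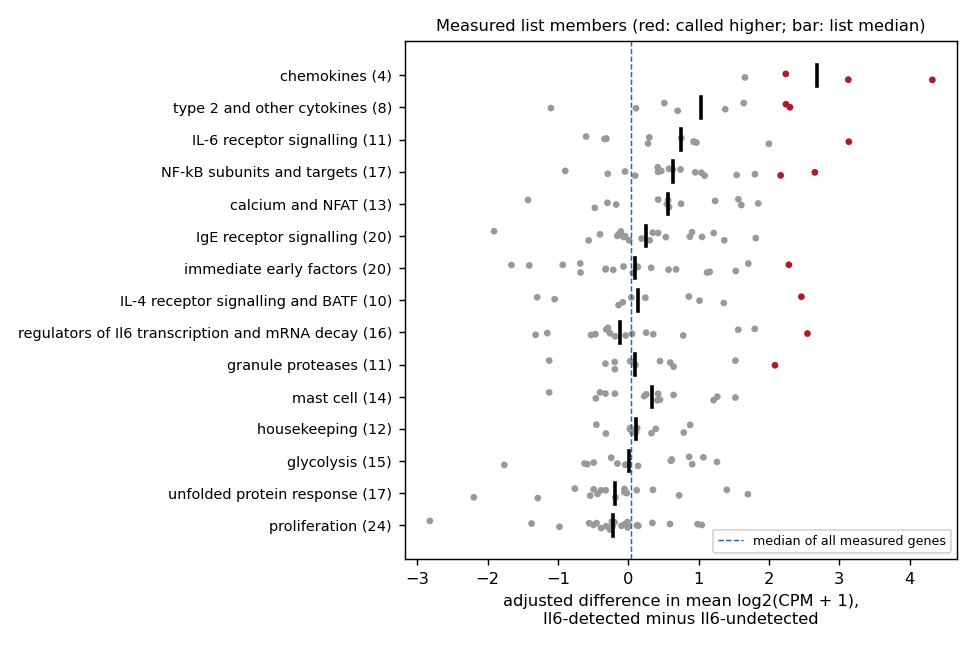
Adjusted difference in mean log2(CPM + 1), Il6-detected minus Il6-undetected cells, of each measured member of 15 lists, with the number measured in brackets. Bars are list medians, red points are genes called higher and the dashed line is the median of all measured genes; the chemokine median is 2.68 and that of proliferation -0.21.

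Outside the lists, the genes with the largest adjusted differences are known for varied roles. Ero1l, an oxidase of the endoplasmic reticulum that helps form disulfide bonds, had medians of 542 CPM in Il6-detected cells and 84.7 CPM in Il6-undetected cells and an adjusted difference of 3.10, which was 0.58 among cells above the median of detected genes and 4.50 among the others. Arhgef2, an exchange factor bound to microtubules, had medians of 174 and 10.7 CPM and an adjusted difference of 3.00, and 2.70 and 3.14 in these parts of the cells. Mia3, a protein that loads large cargo at exit sites of the endoplasmic reticulum, was detected in 24 of 51 Il6-detected cells (47.1%, 32.9% to 61.5%) and in none of the 17 Il6-undetected cells. Gabpb1, a subunit of the transcription factor GABP, was detected in 18 Il6-detected cells, and all 17 Il6-undetected cells were at 0 reads. For both, 0 of 17 cells allows a share of up to 19.5%. The GTPase genes Gimap5 and Gimap6, known for roles in lymphocyte survival, had adjusted differences of 2.89 and 2.83, and Emb, Tmem64, Atp13a3, Phlda1 and Ndfip1 lay between 2.73 and 2.84. Tmem64 and Emb, membrane proteins, differed by 0.31 and 1.03 among cells above the median of detected genes and by 4.12 and 3.88 among the others. Arhgef2, Emb and Gimap6 were among the genes called higher whose mean CPM did not differ 2-fold. In Il6-detected and Il6-undetected cells their means were 272 and 157, 807 and 686, and 330 and 271 CPM.

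The 14 genes called lower belonged to no list. Csnk1g1 (ENSMUSG00000032384, chromosome 9, 65908924 to 66045015, plus strand), a casein kinase 1 gene, was detected in 13 of 51 Il6-detected cells (25.5%, 14.3% to 39.6%) and in 9 of 17 Il6-undetected cells (52.9%, 27.8% to 77%). Its medians were 0.854 and 53.7 CPM, its highest values 1636 and 2634 CPM, and its adjusted difference -4.44, with -4.45 among cells above the median of detected genes and -4.39 among the others. Gatad2b, a subunit of the NuRD chromatin complex, had medians of 11.1 CPM in Il6-detected cells and 176.8 CPM in Il6-undetected cells. Its adjusted difference was -3.41, and -1.36 and -4.56 in these parts of the cells. Fgd2, a Cdc42 exchange factor, had medians of 0.924 and 190.2 CPM. Its adjusted difference was -3.30, and -4.09 and -2.91 in these parts. The groups overlapped for all 3 genes. Of the 14 genes, 9 were called again among cells above the median of detected genes and 12 among the others. In these parts 420 and 153 genes were called lower in all, and the 14 were chosen on the same cells, so this is no separate check. Rad51b, a DNA repair gene, and Dhrs7, a dehydrogenase, each had -2.90, and Traf3ip1, Tmem168, Zfp644, Ubn1, Gbp7, Apobec3, Fam3c, Abi2 and Zbtb4 lay between -2.05 and -2.78. Ubn1, a histone chaperone subunit, was detected in 24 of 51 Il6-detected cells (47.1%, 32.9% to 61.5%) and 14 of 17 Il6-undetected cells (82.4%, 56.6% to 96.2%).

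Likeness to Il6 was measured by the Spearman rank correlation of CPM over the 68 kept cells, for 3946 genes with 10 or more reads in at least 16 cells. The values share the cells' totals and depth and are given with no p. Pim1 was most like Il6, with a correlation of 0.51, followed by Eif1, a translation initiation factor, with 0.50, Atp13a3 with 0.46, Pbdc1 with 0.45, Smarce1, Svil and Serpina3g with 0.43 each, Nfkbiz with 0.43, Icam2 with 0.42 and Lyn with 0.41. The lowest were Klf13 with -0.39, Gatad2b and Fgd2 with -0.37 each, and Zfp644 and Mosmo with -0.34 each. Within the 51 Il6-detected cells, Pim1 had a correlation of 0.42, Eif1 of 0.43 and Serpina3g of 0.41, against 0.10 for Ccl4, 0.16 for Ccl3, 0.06 for Bcl10 and 0.01 for Batf. There the genes called higher had a median correlation of 0.04, against -0.03 over all measured genes, and 52 of the 90 were above 0, against 40.3% of all measured genes. The genes called lower had a median correlation of 0.02 there, also above that of all measured genes, and only 6 of the 14 were below 0. Within the Il6-detected cells the genes called lower thus did not fall as a set with the Il6 level. Serpina3g, a serine protease inhibitor called higher, also differed by scale, with a mean of 416 CPM in Il6-detected cells and 605 CPM in Il6-undetected cells, but medians of 158.7 and 0.992 CPM.

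None of the listed markers of other cells was called. Of 14 macrophage or monocyte markers, 1 was measured and 6 had 0 reads in every kept cell (Adgre1, C1qc, Mrc1, Fcgr1, Mpeg1 and Itgam). Their summed level was between 0 and 389 CPM in Il6-detected cells, with a median of 0.685, against 0 to 81.0 CPM with a median of 0 in Il6-undetected cells. Of 11 dendritic cell markers 3 were measured, with a median of 0.37 and sums of 0 to 4281 CPM in Il6-detected cells against 0 to 4786 CPM in Il6-undetected cells, and Flt3, Clec9a, Ccr7 and Siglech had 0 reads. Of 12 B cell or plasma cell markers 4 were measured (median 0.35), with sums of 1.17 to 690 CPM against 0.992 to 1308 CPM, and Sdc1 was among those with 0 reads. Of 11 T cell markers 1 was measured (-0.29), of 9 cytotoxic lymphocyte markers 2 (-0.10) and of 12 ILC2 markers 1 (1.04), and Cd4, Cd8a, Tbx21 and Il5 were among those with 0 reads. Of 11 basophil markers, which share Fcer1a, Ms4a2 and Gata2 with the mast cell list, 9 were measured (0.45). The basophil protease gene Mcpt8 had 10 or more reads in 17 Il6-detected and 3 Il6-undetected cells, and Prss34 in 9 and 2. Of 12 stromal or endothelial markers, Pecam1 was detected in 36 and 6 cells (adjusted difference 1.61) and Pdgfrb in 6 and 2, with 7 of the 12 at 0 reads. Of 9 progenitor markers, which include Kit, 3 were measured (-0.50). No eosinophil, neutrophil, epithelial or erythroid marker was measured, and Epx, S100a8, Krt8 and Hba-a1 were among those with 0 reads. Their part in the differences was not tested.

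The bulk libraries gave values that the choice of cells did not use. They held 2521791 gene reads in IL4raY709F, 2330628 in IL4ra-/- and 2299793 in WT, and both ratios share the WT library. A gene was called at a 2-fold ratio of CPM scaled by the trimmed mean of M-values (TMM), with 50 or more reads in the larger library and an exact 95% counting interval that excludes 1. There is 1 library per genotype, so the ratios have no replicate check. In bulk RNA, fewer cells with a transcript and less of it per cell cannot be told apart. Il6 itself stood at 789 CPM in IL4raY709F, 299 CPM in IL4ra-/- and 359 CPM in WT. Its ratio was 2.20 in IL4raY709F (2.02 to 2.39) and 0.834 in IL4ra-/- (0.755 to 0.922), of which the first passed the size rule.

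Of the genes called higher in Il6-detected cells, 87 had enough reads for the IL4raY709F ratio. Among them 5 were called higher in IL4raY709F (5.75%), against 1.29% of 5033 genes measured in the cells, and none lower, against 0.338%. The 5 were Serpina3g with a ratio of 4.34 (3.87 to 4.88), Phlda1 with 3.16 (2.70 to 3.71), Batf with 3.03 (2.68 to 3.43), Gzmb with 2.95 (2.86 to 3.05) and Slfn2, a Schlafen family gene, with 2.44 (1.78 to 3.39). Of 88 genes with enough reads for the IL4ra-/- ratio, 2 were called lower (2.27%), against 1.1% of 5160 genes, and none higher, against 0.988%. These were Batf with 0.342 (0.278 to 0.420) and Serpina3g with 0.429 (0.356 to 0.517). Of the 15 genes with the largest adjusted differences between the cell groups, Phlda1 was the 1 called in either library. Among genes not called in bulk, Ccl4 had ratios of 1.06 and 1.04 in IL4raY709F and IL4ra-/-, Ccl3 of 1.10 and 1.31, Bcl10 of 0.798 and 0.868, Pim1 of 1.21 and 0.666, Nfkbiz of 1.13 and 0.973 and Il4 of 1.60 and 1.21. The median log2 ratio of the genes called higher was 0.12 in IL4raY709F and -0.11 in IL4ra-/-, against 0.03 and -0.09 over all measured genes. Of the 14 genes called lower, 12 had enough reads and none was called in either library.

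**Figure D5:**
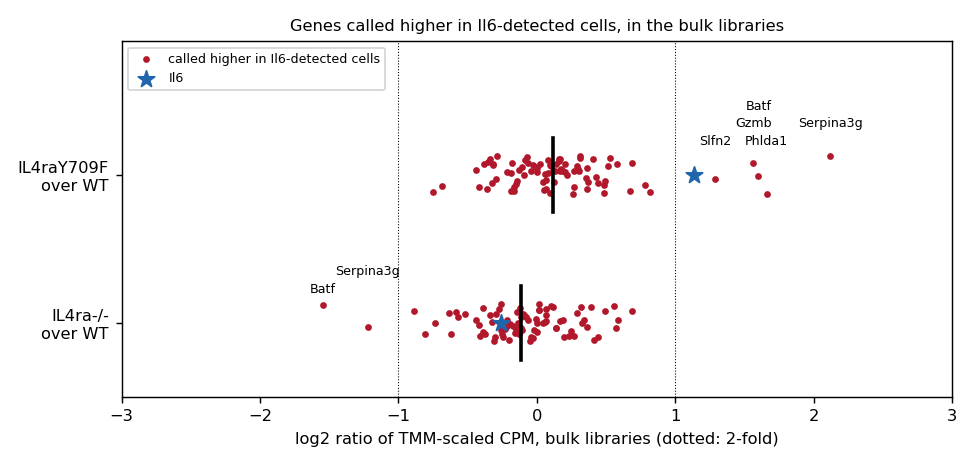
Log2 ratio of TMM-scaled CPM of the IL4raY709F and IL4ra-/- bulk libraries over the shared WT library, for 87 genes called higher in Il6-detected cells; bars are medians, the star is Il6 and dotted lines mark 2-fold. Most genes lie within 2-fold in both, and Serpina3g, Batf, Phlda1, Gzmb and Slfn2 lie past it in IL4raY709F.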

How the data were processed

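Single MMC9 cells and 3 bulk libraries were analysed from the whole-number read counts per gene that the authors deposited, with no normalization. HISAT for alignment, featureCounts of Subread 2.0.0 for counting and the builds GRCm38 and mm9, without roles, are named per the submitters' processing notes; 99.5% of the gene IDs found in GENCODE M21 had its GRCm38 coordinates, which are used here. Nothing in the sources used here gives the strand setting, multimapping or molecular identifiers, so reads of antisense, overlapping and near-identical genes (Mcpt1 and Mcpt2, the Serpina3, Gimap and Ccl3/Ccl4 families) may be split wrongly. Symbols altered to dates (27) were restored by gene ID. Counts were scaled to CPM per cell; log2 uses a pseudocount of 1 CPM. A gene was detected at 10 reads. Intervals are exact (Clopper-Pearson, 95%) and cover counting error only. Those of cell shares count cells as independent, although all cells are 1 sample with no animal named, so they are no test between the groups. Those of bulk ratios count reads, which are not independent molecules. Doublets were not called, since cells were sorted singly. No kept cells had identical counts. The least-squares script was tested on simulated counts.

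Python 3.11.15, NumPy 2.4.6, SciPy 1.17.1 and, in R 4.3.3, edgeR 4.0.16 (TMM) and scran 1.30.0 were used. The members and the 23 pathway and 14 cell type lists were chosen with earlier results of these data known. The genes named were 20 always named, the 15 with the largest adjusted differences in each direction, up to 4 called members per list, and the 10 highest and 5 lowest rank correlations with Il6; other list members and bulk genes named beside a count were chosen after their values were seen. Genes without a usable symbol (2 of those called higher) were counted and not named. Alternatives changed the Il6 and gene thresholds, the scaling, pseudocount, read depth, covariates and cells.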

Additional observations from a re-analysis of the deposited data

Results flagged for a closer look

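Il6 was also present in cells that the filter left out, which the comparisons do not use. Of the 13 left-out cells, 5 had 10 or more Il6 reads. They were cell 53 with 145 reads (305 CPM, 32.3% mitochondrial reads), cell 42 with 58 reads (139 CPM, 27.2%), cell 34 with 16 reads (70.4 CPM, 82.6%), and cells 24 and 69 with 12 reads each (60.5 and 40.2 CPM, 76.4% and 71.6%). All 5 were left out for mitochondrial reads and had 381 to 1528 detected genes.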

How the results depend on the processing

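The share of Il6-detected cells was between 69.1% and 83.8% under all alternatives except a threshold of 1 read, which gave 98.5%. That threshold leaves cell 52 as the only Il6-undetected cell, so its values describe that cell: 1078 genes higher, 1147 lower and 4 lists with a median above that of all genes (20 at 10 reads), with reversed adjusted differences for Apobec3 (1.39), Atp13a3 (-4.02), Ccl1 (-4.37), Ccl3 (-3.80), Ccl4 (-2.80), Csf1 (-6.07), Csnk1g1 (1.01), Dhrs7 (1.66), Emb (-3.57), Ero1l (-2.30), Gadd45b (-4.22), Gatad2b (2.60), Gimap5 (-2.84), Il4 (-2.34), Mia3 (-0.25), Ndfip1 (-1.45), Nfkbiz (-0.99), Nr4a3 (-3.44), Pim1 (-2.05), Serpina3g (-6.75), Tmem168 (0.63) and Traf3ip1 (1.49). Called higher and lower genes numbered 51 and 1 over all 81 cells, 3 and 2 with a pseudocount of 10 CPM, 715 and 295 at a difference of 1, and 3 and 1 at a difference of 3. Without the term for detected genes 206 were higher, and without each gene's highest cell 6 were lower. Cells above the median of detected genes (29 and 5 cells) gave 394 and 420, with Gzmb at -0.13 and Il4 at -0.45, and the other cells (22 and 12) gave 210 and 153; groups this small reach a difference of 2 more often. Of the 90 genes called higher, 82 were above 0 in the cells with more detected genes and 90 in the others. Of the 14 called lower, 14 were below 0 in both. The genes were called on these same cells, so their signs here follow in part from the choice and are no separate check. At 50 Il6 reads, 56 of the 90 and 5 of the 14 were called again. Leaving out each cell in turn gave 81 to 105 higher and 14 to 25 lower, with 50 and 6 genes called every time; the count of lower genes was 25 without Il6-undetected cell 13, 23 without cell 54 and 22 without cell 36. Of the 68 repeats, the genes named here that were not called every time were called in 38 (Ccl1 and P2rx4), 40 (Dnajb1), 57 (Gzmb), 61 (Zfp644), 62 (Abi2, Apobec3, Tmem168 and Zbtb4), 65 (Nfkbiz, Slfn2 and Dhrs7), 66 (Fam3c and Gbp7) or 67 (Csf1 and Gadd45b). TMM and scran scaling, thinning to 150000 or 600000 reads, a mitochondrial term and other gene filters gave 83 to 97 higher and 11 to 18 lower. Depth limits genes at a few reads, as does the 1 library per genotype in bulk. The bulk counts were 5 or 6 higher in IL4raY709F and 2 lower in IL4ra-/- under each alternative. No paired analysis was possible because the cells carry no replicate pairing and each bulk genotype has 1 library.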
